A study of Mus musculus with 2 samples.

Results

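The 48 genes described here encode the ligands, receptors, extracellular antagonists, latency proteins, Smads and Id targets of transforming growth factor β (TGF-β), activin and bone morphogenetic protein (BMP) signalling. They were chosen by name as a pathway, with earlier results of these data known, and all 48 were measured, out of 19938 genes in all. Of these genes, 17 were assigned to the TGF-β and activin branch, 24 to the BMP branch and 7 to both. The 2 arrays compared cultured dermal cells transfected with siRNA against β-catenin (1 array) with the same kind of cells given control siRNA (1 array). Both groups were dermal cells of C57BL/6 mice, taken from dorsal skin on the day of birth and grown for 24 h in serum-containing medium. Each siRNA was used at 10 nM and RNA was taken after 48 h of transfection. Affymetrix whole-transcript arrays were hybridised with cDNA made from 300 ng of RNA. The labels do not give the number of pups or cultures behind an array, and cells given no siRNA were not analysed here.

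Ligands of this family are secreted dimers that bring type I and type II receptor kinases together at the cell surface. TGF-β and activin receptors phosphorylate Smad2 and Smad3, BMP receptors phosphorylate Smad1 and Smad5, and both sets enter the nucleus with Smad4. TGF-β is stored in the matrix in a latent form bound to latent TGF-β binding proteins, while noggin, gremlin, chordin and follistatin trap BMPs or activins outside the cell. In skin, BMP signalling and its antagonists take part in hair follicle induction and cycling, and TGF-β drives fibroblasts towards contractile, matrix-producing myofibroblasts. Id genes, which encode inhibitors of basic helix-loop-helix factors, are widely used readouts of BMP signalling.

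Values were on the log2 scale, and each difference is the β-catenin siRNA value minus the control siRNA value. With 1 array per group there was no replicate error, so no difference could be tested against the spread between cultures and sizes alone are given. The siRNA target Ctnnb1 had a value of 9.34 with β-catenin siRNA, against 10.48 with control siRNA. Its signal was 45.2% of the control signal. The median difference over all genes was -0.02 and its robust SD 0.25. All 12 fibroblast markers, among them Col1a1, Col1a2 and Vim, reached or exceeded 5.13 on both arrays. This value, the median over genes of the mean of both arrays, is called the median level below. Markers of skeletal muscle (8 genes), adipocytes (5) and Schwann cells (5) had both values under it, as did 8 of 9 myeloid, 6 of 8 endothelial and 4 of 7 melanocyte markers. Of 8 pericyte and smooth muscle markers, 4 had both values under the median level. The other 4, among them Mcam and Myh11, reached or exceeded it on both arrays. Of 13 keratinocyte markers, 7 had both values under the median level, whereas Krt14, Krt5 and Krt17 lay well over it on both arrays. Of the 13, 10 were higher, 2 lower and 1 equal. At least 1.5-fold higher were 4 (30.8%, against 2.23% of all genes), and 1 was that much lower (7.69%, against 2.35%). The summed linear signal of the 13 markers was 1278 with β-catenin siRNA and 823 with control siRNA. Of the 12 fibroblast markers, 4 were at least 1.5-fold higher, or 33.3%, against 2.23% of all genes. Named after their values were seen, these were Lum (1.29), Dpt (1.13), Dcn (0.84) and Pdgfra (0.75). Fibroblast markers that much lower numbered 0, against 2.35% of all genes. In bulk RNA, fewer cells of a type and less RNA per cell cannot be told apart.

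Secreted members held the large differences. Of the 48 members, 9 were at least 1.5-fold higher or lower (0.58 on the log2 scale), or 18.8% of the members, against 4.58% of all measured genes. Higher members numbered 4, or 8.33%, against 2.23% of all genes, and lower members numbered 5, or 10.4%, against 2.35%. Without centring, all 9 were among the 26 ligands, latency proteins and extracellular antagonists. Of the 22 receptors, Smads and Id targets, 0 reached 1.5-fold, against 4.58% of all genes, a share so low that 0 of 22 is near it. Their differences ran from -0.33 to 0.57. Id4 did cross the line after median centring (0.59) or lowess centring (0.60), so the split into secreted and other members depends on this choice. This division was made after the values were seen, and the members themselves were chosen with earlier results of these data known. At 2-fold, 1 member was lower (Inhbb), against 0.321% of all genes, and 0 were higher, against 0.607%. The medians of the branches lay close together, at -0.06 for TGF-β and activin and 0.06 for BMP, and at 0.06 for all 48 members.

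**Figure D1:**
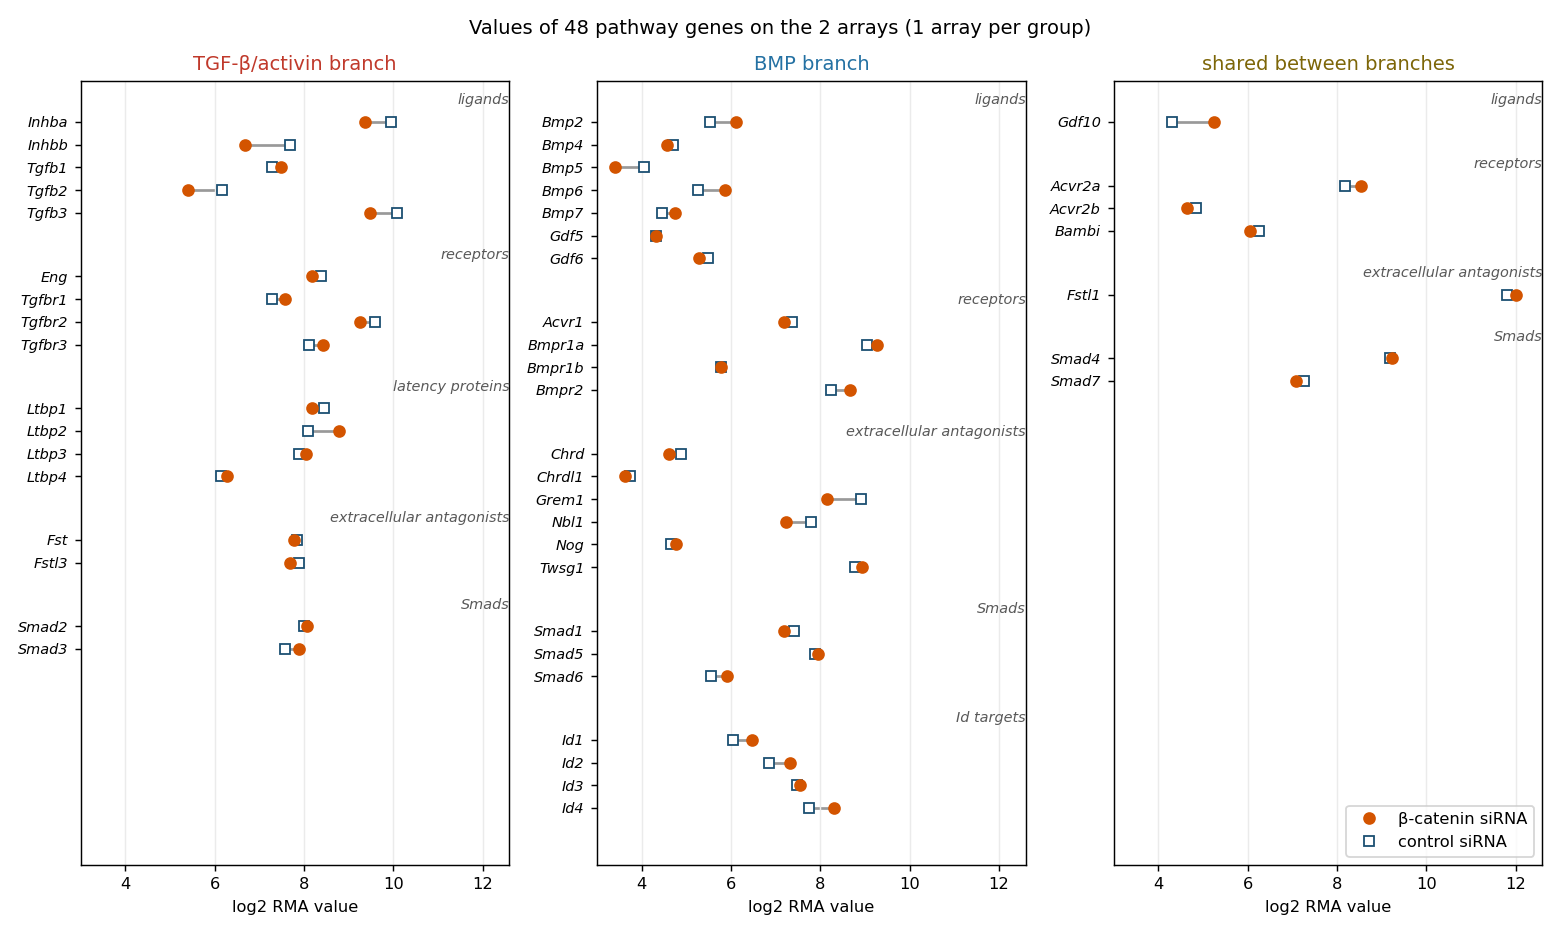
Log2 RMA values (horizontal axis) of each of the 48 genes on the β-catenin siRNA array (filled circles) and the control siRNA array (open squares), grouped by branch and role, with 1 array per group. Lines join the 2 values of a gene, and the longest are those of Inhbb, Gdf10, Tgfb2 and Grem1.

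Ligands of the TGF-β and activin branch were mostly lower after β-catenin siRNA. Inhbb, the βB subunit of activin B, had a value of 6.67 with β-catenin siRNA and 7.70 with control siRNA. This difference of -1.02, or 2.03-fold lower, was the 59th lowest of all 19938 genes and the largest of any member. Inhba, the βA subunit of activin A, had 9.36 with β-catenin siRNA and 9.94 with control siRNA, a signal of 66.8% of the control signal. Its difference of -0.582 fell just short of the 1.5-fold line at -0.585. Genes for both activin subunits were thus lower, and all 4 values lay over the median level.

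Tgfb2, a TGF-β isoform with roles in hair follicle and craniofacial development, had 5.40 with β-catenin siRNA and 6.17 with control siRNA, a difference of -0.77. Tgfb3, known for its part in palate fusion and scar biology, had 9.47 with β-catenin siRNA and 10.09 with control siRNA, a difference of -0.61. Its difference was -0.57, inside the 1.5-fold line, after lowess centring. Tgfb1, the isoform most often tied to fibrosis, went the other way, with 7.49 with β-catenin siRNA and 7.28 with control siRNA. The TGF-β isoform genes thus did not share a direction. Among the 5 ligand genes of this branch, 4 were lower and 1 higher, 3 were at least 1.5-fold lower, and the median difference was -0.61.

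Receptors of this branch differed by less than 1.5-fold and went both ways. Tgfbr2, the ligand-binding type II receptor, had 9.25 with β-catenin siRNA and 9.59 with control siRNA, a difference of -0.33. Tgfbr1, the type I kinase that it activates, had 7.57 with β-catenin siRNA and 7.29 with control siRNA, a difference of 0.28. The co-receptor genes were split as well. Tgfbr3, or betaglycan, which presents TGF-β2 to its receptors, differed by 0.31, and Eng, the co-receptor endoglin, by -0.21. The median of the 4 receptors was 0.04.

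Of the 4 latency protein genes, 1 stood apart from the rest. Ltbp2, a microfibril protein that resembles the others but does not bind latent TGF-β, had 8.80 with β-catenin siRNA and 8.09 with control siRNA. It was 1.64-fold higher. Ltbp3 and Ltbp4 were higher by 0.16 and 0.13, and Ltbp1, the main carrier of latent TGF-β in fibroblast matrix, differed by -0.25. The activin traps follistatin (Fst, -0.06) and follistatin-like 3 (Fstl3, -0.19) differed little. Smad3 had 7.88 with β-catenin siRNA and 7.59 with control siRNA, while Smad2 differed by 0.07.

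BMP ligand genes had no common direction. Bmp2, an inducer of bone and a follicle signal, had 6.12 with β-catenin siRNA and 5.53 with control siRNA. Bmp6, a skin and liver BMP that regulates hepcidin in the liver, had 5.87 with β-catenin siRNA and 5.27 with control siRNA. Differences of 0.59 and 0.60 put both just over the 1.5-fold line, and both genes had values over the median level on each array. Bmp5, first known from the short ear mouse, had 3.39 with β-catenin siRNA and 4.06 with control siRNA, a difference of -0.66. Both of its values lay far under the median level, where the robust SD of the difference over genes of like level was 0.28.

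The other 4 BMP branch ligands stayed within 1.5-fold. Bmp4 (-0.15), Bmp7 (0.29) and Gdf5 (0.00) had both values under the median level, and Gdf6 differed by -0.20. Gdf5, a joint-forming ligand, was listed with exactly the same value on both arrays, as was the receptor gene Bmpr1b and 1168 of all 19938 genes. The median of the 7 ligands was 0.00, but it was 0.59 over the 3 (Bmp2, Bmp6 and Gdf6) above the median level. Set beside the median of all 7, the median of the TGF-β and activin ligands was lower by 0.61, and 4 of 5 TGF-β and activin ligand genes were lower against 3 of 7 BMP ligand genes. No test of this contrast was possible. Over all genes, 52.5% were lower by any amount.

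**Figure D2:**
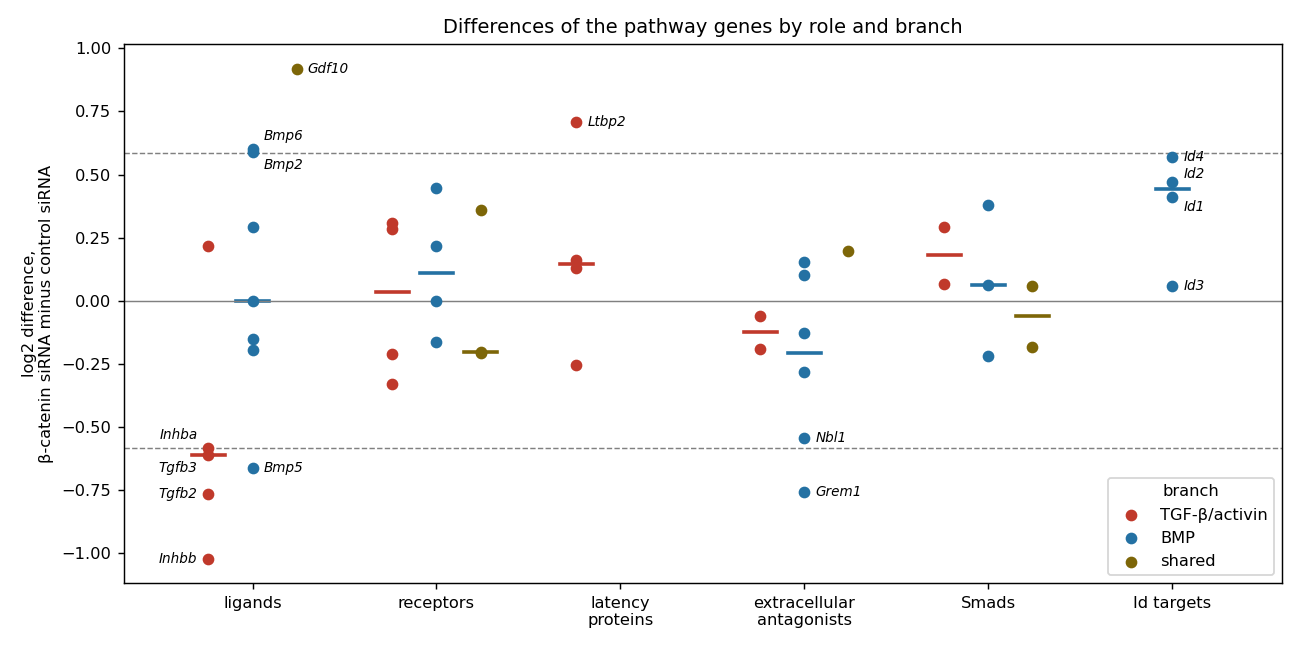
Log2 differences, β-catenin siRNA minus control siRNA (vertical axis), of the 48 members by role, with points coloured by branch and short bars at the median of each group of 2 or more genes. Dashed lines mark 1.5-fold, and the 9 points beyond them are ligands, Ltbp2 and Grem1 (Id4 joins them after median or lowess centring).

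BMP receptor genes were all within 1.5-fold. The type II receptor gene Bmpr2 had 8.67 with β-catenin siRNA and 8.23 with control siRNA, a difference of 0.44 and the largest among the 11 receptor genes. Type I receptor genes differed less, with 0.22 for Bmpr1a, 0.00 for Bmpr1b and -0.16 for Acvr1. Of the type II activin receptors, which also bind BMPs and were therefore counted as shared, Acvr2a differed by 0.36. Acvr2b differed by -0.20, with both values under the median level. Bambi, a decoy receptor without a kinase domain, had 6.04 with β-catenin siRNA and 6.25 with control siRNA.

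Of the 3 BMP antagonist genes with values over the median level, 2 were lower. Grem1, gremlin, a secreted antagonist of BMP2 and BMP4, had 8.14 with β-catenin siRNA and 8.90 with control siRNA. Its difference of -0.76, or 1.69-fold lower, was the 170th lowest of all genes. Nbl1, a relative of gremlin also called DAN, had 7.24 with β-catenin siRNA and 7.78 with control siRNA, a difference of -0.54 that stayed within 1.5-fold. Twsg1, twisted gastrulation, which can aid or block BMPs together with chordin, was the exception at 0.15. Nog (noggin, 0.10), Chrd (chordin, -0.28) and Chrdl1 (-0.13) had both values under the median level, so their differences rest on dim signal. The median of the 6 genes was -0.21, with 4 lower and 2 higher, and it was -0.54 over the 3 genes above the median level.

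Of the 4 Id genes, 3 were higher by 0.41 to 0.57, and the remaining one, Id3, by 0.06. Id4 had 8.31 with β-catenin siRNA and 7.74 with control siRNA, a difference of 0.57 just inside the 1.5-fold line, which it passed after either centring (0.59 and 0.60). Id2 had 7.32 with β-catenin siRNA and 6.85 with control siRNA, and Id1 had 6.46 with β-catenin siRNA and 6.05 with control siRNA. Id3 had 7.54 with β-catenin siRNA and 7.48 with control siRNA, a difference well under the robust SD of 0.19 among genes of like level. The median difference of the 4 was 0.44, where 41.6% of all genes were higher by any amount. Smad6, an inhibitory Smad that BMP signalling induces, was higher by 0.38. Smad7, the inhibitory Smad that acts on both branches, differed by -0.18. The signal-carrying Smads of the BMP branch differed by -0.22 (Smad1) and 0.06 (Smad5), and the common partner Smad4 by 0.06. Keratinocytes also express Id genes, Bmp2 and Bmp6. Of 13 keratinocyte markers, 10 were higher and 2 lower, and their summed signal was higher with β-catenin siRNA (1278 against 823). The part of this signal in these differences was not tested.

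A pair of the members shared by both branches encode secreted proteins. Gdf10, also called BMP3b, a divergent ligand that has been tied to Smad2 and Smad3 signalling, had 5.24 with β-catenin siRNA and 4.32 with control siRNA. It was 1.89-fold higher, the largest positive difference of any member, but its control value lay under the median level. Fstl1, a follistatin-like glycoprotein abundant in mesenchymal cells, had 12.01 with β-catenin siRNA and 11.81 with control siRNA. Its difference of 0.20 was within 1.5-fold.

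**Figure D3:**
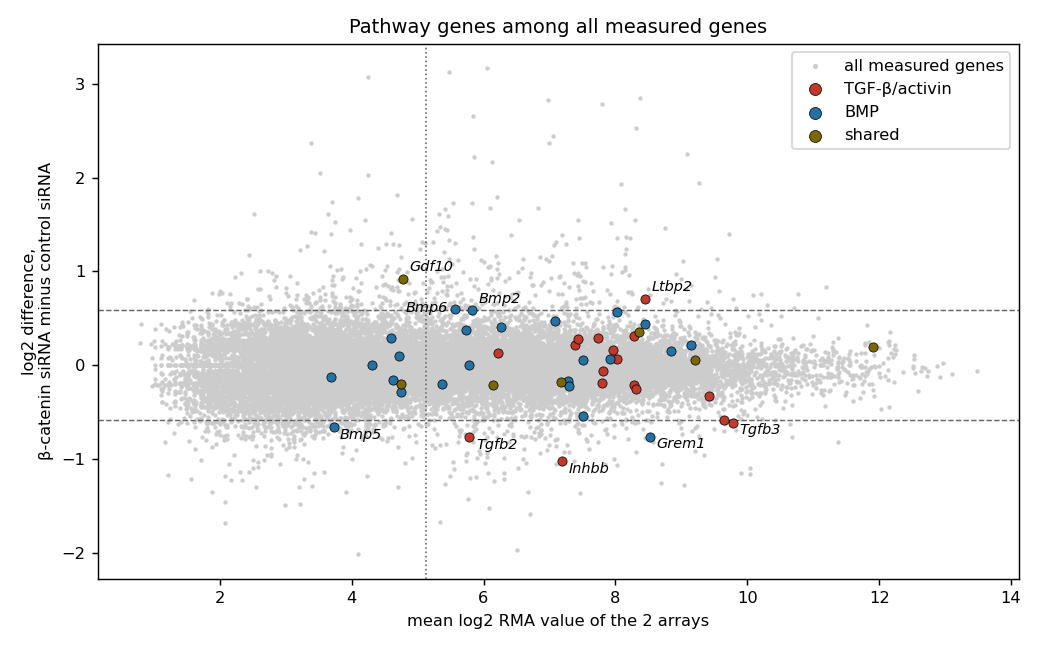
Log2 difference, β-catenin siRNA minus control siRNA (vertical axis), against the mean log2 RMA value of the 2 arrays (horizontal axis) for all 19938 genes (grey) and the 48 members (coloured by branch). The 9 named members lie beyond the dashed 1.5-fold lines, and of these Bmp5 and Gdf10 lie left of the dotted median level of 5.13.

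Promoter sequence is shown for the members with the most negative differences, Inhbb, Tgfb2 and Grem1, and for Id2, Id3 and Id4, readouts of BMP signalling. No sequence is shown for Id1, which differed by 0.41. RefSeq windows on GRCm38.p6 were matched for 34 of the 48 members, and the 250 bases before the annotated start were searched on both strands. The motifs were CTTTGAT, a TCF/LEF site, through which β-catenin acts, CAGAC, the core of a Smad binding element, and GGCGCC, a GC-rich element bound by BMP Smads that reads the same on both strands. Capitals mark any match on either strand (GTCTG is CAGAC on the opposite strand), and the marked matches do not overlap. The windows are chr1:119422249-119422498 (minus strand) for Inhbb, chr1:186705990-186706239 (minus strand) for Tgfb2 and chr2:113758649-113758898 (minus strand) for Grem1. Those of the Id genes are chr12:25096093-25096342 (minus strand) for Id2, chr4:136143572-136143821 (plus strand) for Id3 and chr13:48260866-48261115 (plus strand) for Id4. Each sequence runs 5′ to 3′ towards the start of its gene.
Inhbb: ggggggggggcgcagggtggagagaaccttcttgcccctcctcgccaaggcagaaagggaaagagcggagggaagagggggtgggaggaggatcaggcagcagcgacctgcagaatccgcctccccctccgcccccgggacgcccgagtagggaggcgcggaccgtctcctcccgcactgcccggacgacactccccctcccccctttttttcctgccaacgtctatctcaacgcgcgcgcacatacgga
Tgfb2: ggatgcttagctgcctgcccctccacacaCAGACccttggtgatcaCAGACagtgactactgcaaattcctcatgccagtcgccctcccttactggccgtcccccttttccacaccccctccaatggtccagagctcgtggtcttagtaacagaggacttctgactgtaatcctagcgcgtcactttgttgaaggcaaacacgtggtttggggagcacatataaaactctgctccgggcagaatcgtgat
Grem1: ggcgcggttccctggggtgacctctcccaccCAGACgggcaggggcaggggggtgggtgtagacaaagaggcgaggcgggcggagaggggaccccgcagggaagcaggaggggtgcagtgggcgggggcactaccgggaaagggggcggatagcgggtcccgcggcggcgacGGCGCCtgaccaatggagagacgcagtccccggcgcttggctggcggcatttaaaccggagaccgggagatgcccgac
Id2: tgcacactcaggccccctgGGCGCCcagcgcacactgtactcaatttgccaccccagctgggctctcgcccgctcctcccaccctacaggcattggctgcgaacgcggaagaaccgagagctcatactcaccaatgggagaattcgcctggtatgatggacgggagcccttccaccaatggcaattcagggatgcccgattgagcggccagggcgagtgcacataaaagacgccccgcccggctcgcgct
Id3: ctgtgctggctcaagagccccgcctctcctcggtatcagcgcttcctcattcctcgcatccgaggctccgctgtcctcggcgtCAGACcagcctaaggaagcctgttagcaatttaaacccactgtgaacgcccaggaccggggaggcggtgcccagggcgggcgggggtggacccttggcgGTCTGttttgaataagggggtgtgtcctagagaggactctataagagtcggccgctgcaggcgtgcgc
Id4: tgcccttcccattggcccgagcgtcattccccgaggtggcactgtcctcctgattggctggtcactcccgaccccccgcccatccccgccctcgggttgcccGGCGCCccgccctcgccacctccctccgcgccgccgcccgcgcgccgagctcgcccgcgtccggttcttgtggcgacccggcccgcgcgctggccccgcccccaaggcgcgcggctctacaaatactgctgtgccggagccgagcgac

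The Id2 and Id4 windows held GGCGCC once each and Id3 held CAGAC or its complement 2 times. Of the lower genes, Tgfb2 held CAGAC 2 times, Grem1 held CAGAC once and GGCGCC once, and Inhbb held none of the 3 motifs. Over the 34 members, 18 (52.9%) held CAGAC and 10 (29.4%) held GGCGCC, against 45.8% and 10.8% of all 27018 genes with a window. Those 27018 genes were not limited to the 19938 measured genes, and GC content was not matched. In the windows shown, GC content ran from 53.6% (Tgfb2) to 75.6% (Id4). CTTTGAT was held by 0 of the 34 members and by 3.72% of all genes, a share so low that 0 of 34 is near it. Only these letters were searched on both strands, so other forms of a TCF/LEF site were not counted. A match is a description of letters, and windows of this length leave out enhancers.

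Other genes of the pathway were measured as well, in lists chosen with earlier results of these data known. Of 59 further ligand, receptor and extracellular regulator genes, 54 were measured. At least 1.5-fold higher was 1 gene (1.85%, against 2.23% of all genes) and lower were 3 (5.56%, against 2.35%), and the median was -0.03. Bmper, a secreted BMP-binding protein of the chordin type, had 7.15 with β-catenin siRNA and 8.04 with control siRNA, 1.85-fold lower. Crim1, a membrane protein with chordin-like repeats that binds BMPs, had 9.30 with β-catenin siRNA and 9.90 with control siRNA, 1.51-fold lower. Lrrc32, which anchors latent TGF-β at the cell surface, differed by -0.51. Dcn, decorin, a matrix proteoglycan that binds TGF-β, had 11.61 with β-catenin siRNA and 10.77 with control siRNA, 1.79-fold higher, and is also in the fibroblast marker list. The remaining gene past 1.5-fold, Bmp8b, named after its value was seen, differed by -0.59 with both values under the median level. Of 34 other intracellular genes, 0 reached 1.5-fold in either direction, against 4.58% of all genes, a share so low that 0 of 34 is near it. Among those with a value at or above the median level, Tab1, an activator of the TGF-β-activated kinase, differed most, at -0.44. Next were the deubiquitinase Usp9x at 0.42, the adaptor Dab2 at 0.38 and the feedback inhibitor Pmepa1 at -0.34. Smad9 (0.44) and Foxh1 (-0.39), named after their values were seen, had both values under the median level.

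Known TGF-β target genes had a median near that of all genes, but 6 of 34 measured were at least 1.5-fold lower and 1 higher, against 2.35% and 2.23% of all genes. Their median was -0.06, with 21 lower and 13 higher. This list was chosen with earlier results of these data known, so its shares are not independent of them. Edn1, endothelin-1, had 6.78 with β-catenin siRNA and 8.14 with control siRNA, a difference of -1.36. Tgm2, a transglutaminase that crosslinks matrix proteins, had 5.70 with β-catenin siRNA and 6.91 with control siRNA, a difference of -1.21. Cnn1, the smooth muscle protein calponin, had 9.50 with β-catenin siRNA and 10.59 with control siRNA. Cdkn2b, a cell cycle inhibitor that TGF-β induces in epithelial cells, had 7.32 with β-catenin siRNA and 8.37 with control siRNA. Each of these genes also answers to other signals. The other 27 targets stayed within 1.5-fold. Named after their values were seen, these included the contractile genes Acta2 (-0.12) and Tagln (-0.33) and the matrix genes Tgfbi (-0.40), Lox (-0.14), Col1a1 (-0.07), Postn (0.22) and Fn1 (0.35). The summed linear signal of 8 pericyte and smooth muscle markers was 754 with β-catenin siRNA and 1007 with control siRNA. The markers did not share a direction, with 4 lower, 3 higher and 1 equal, and 1 was at least 1.5-fold lower. Mcam (-0.42) and Myh11 (-0.68), the brightest of them, were both lower and weigh most in the sum. The part of this summed signal in the lower Cnn1 was not tested.

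Of 19 measured BMP target genes outside the members, 1 was at least 1.5-fold higher (5.26%, against 2.23% of all genes) and 0 that much lower (against 2.35%), near the share over all genes for a list of this size. The median was 0.06. Atoh8, a helix-loop-helix factor induced by BMPs in endothelial and liver cells, had 5.79 with β-catenin siRNA and 5.15 with control siRNA, 1.56-fold higher. Zfp423, a zinc finger partner of BMP Smads, differed by 0.29, Gata3 by 0.18 and Tbx2 by -0.11. Both values were under the median level for 13 of the 19, among them Msx1 and Dlx3, named after their values were seen, so most of this list rests on dim signal.

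**Figure D4:**
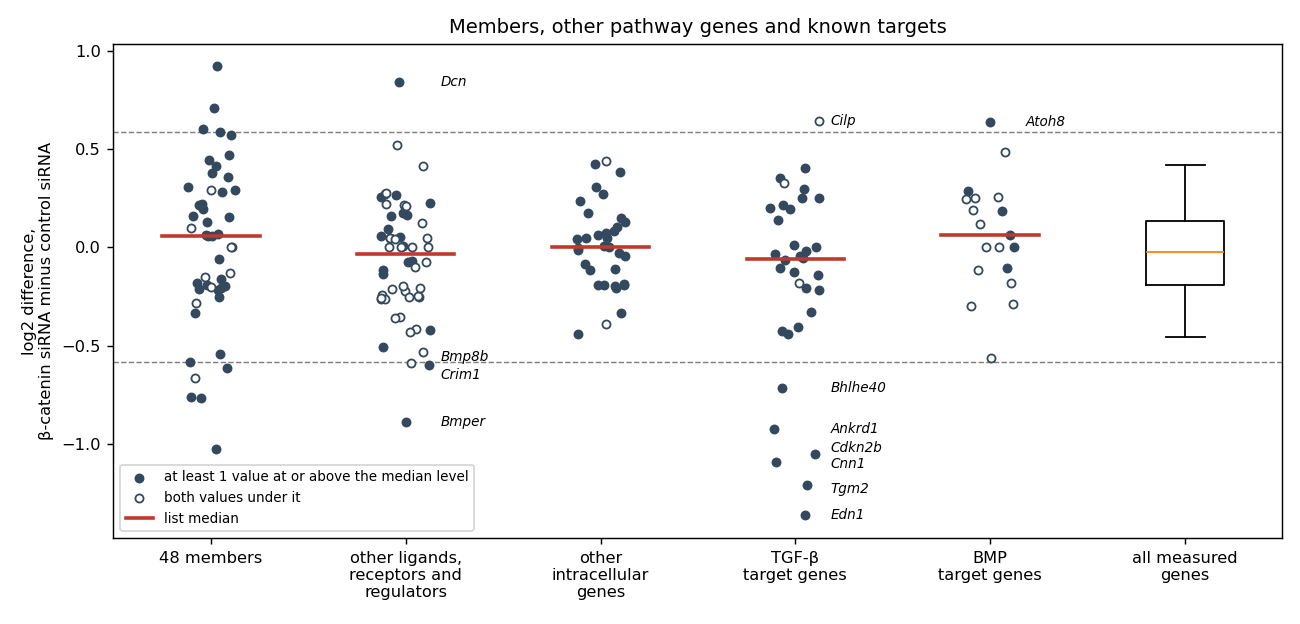
Log2 differences, β-catenin siRNA minus control siRNA (vertical axis), of the 48 members and 4 further gene lists, with red bars at list medians and open circles for genes with both values under the median level. The box for all measured genes spans the 25th to 75th percentile, with its line at the median and whiskers at the 5th and 95th percentile, and the points farthest below the dashed 1.5-fold line are Edn1, Tgm2, Cnn1 and Cdkn2b among TGF-β targets.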

How the data were processed

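RNA from cells given β-catenin siRNA or control siRNA was measured on 2 Affymetrix arrays, 1 per group. The authors deposited 1 log2 value per probe set and array, made by robust multi-array average (RMA, which corrects background, equalises array distributions and summarises probes), per the submitters' processing notes. The log2 scale was judged from the values (0.485 to 13.5), and the sources used here name no software, version or build. RMA shrinks differences of dim probe sets, and detection calls were not used here. Of 28944 probe sets, 21789 had 1 gene symbol in the platform annotation, and 21698 of these were matched by gene ID to a RefSeq table of GRCm38.p6. Each of 19938 genes was represented by its probe set with the highest mean, and each member had 1 such probe set. Differences were computed with pandas 2.3.3 over all genes, with no level filter. The number of arrays limits the precision, and no test was possible. The robust SD is 1.4826 times the median absolute deviation, within 20 level bins for single genes. Members and lists were chosen with earlier results of these data known. Members were described by size of difference, and other lists by their 4 largest absolute differences among genes with a value at or above the median level. A simulation with known folds placed into noise tried only the subtraction and the 1.5-fold call, not the choice of probe sets or the lists.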

Additional observations from a re-analysis of the deposited data

How the results depend on the processing

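With 1 array per group, no replicate could be left out. No paired analysis was possible because each group had 1 array. Level filters, lowess centring (span 0.3), median centring, other probe set rules, shared members in both branches and means in place of medians were tried. Of 186 recomputed values, 176 kept their size within the limits set (0.15, the SD between probe sets of a gene, for medians, 1.5 times for counts and the 1.5-fold line for single members). Many of these could not move. Each member had 1 probe set, so the other probe set rules returned the same member values. Median centring only took away the median over all genes (-0.02) and could not change the contrast of the branches. This tally is therefore no measure of stability. At 2-fold, 0 members were higher and 1 was lower. With either level filter, the median of BMP ligands was 0.59, over the 3 left (Bmp2, Bmp6 and Gdf6), that of BMP antagonists -0.54 and that of shared receptors 0.076, since fewer genes remained. The mean of shared receptors was -0.017. Tgfb3 was at -0.57 after lowess centring, and Id4 passed 1.5-fold after median (0.59) and lowess (0.60) centring, which made 5 higher members. The TGF-β and activin median minus the BMP median was -0.12, and ran from -0.21 to -0.06. The TGF-β and activin median reached -0.00014 with shared members added. Dim signal limits Bmp5, Bmp4, Bmp7, Gdf5, Nog, Chrd, Chrdl1 and Acvr2b.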
